A study of Sorghum bicolor with 14 samples.

Results

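A set of 333 genes had higher values in the stem of sweet sorghum once the soil held less than about 13% moisture. They stayed above their 13% value as it dried further. They were taken from the 32726 genes of the drought table, of which 16801 reached 1 FPKM in at least 1 reading (FPKM is a fragment count corrected for gene length and library size). A gene was a member when the lower of its values at 7% and 2% moisture exceeded that at 13% by at least 1 on the log2(FPKM + 1) scale, and its values at 7% and 2% differed by less than 1. A difference of 1 on that scale is 2-fold in FPKM + 1, and a larger ratio of FPKM where values are low. Members were thus chosen by their FPKM values in D1, D2 and D3, and those are given as a description. What the rule did not use are the 4 stages of plants in a soil bed, the place of the genes in the genome, and the few genes known from published work.

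RNA came from the middle internode of Sorghum bicolor variety CSV24SS, in 14 samples forming 7 groups of 2. The pots had 1 plant each, watering stopped at the flag leaf stage, and stems were taken at booting at about 13% (D1), 7% (D2) and 2% (D3) soil moisture. Plants in a watered, nitrogen-fertilised soil bed were taken at floral initiation (FI), booting (B), milky stage (MS) and soft dough (SD). All groups are 1 genotype, no watered pot was analysed here, and drier soil and a longer time without water cannot be told apart. The authors gave 1 value per gene and group and no value per sample, so replicate error is unknown, nothing was tested, and each difference is one between 2 values. Depth is unknown. As the tissue is bulk stem, fewer cells of a type and less RNA per cell cannot be told apart.

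As background, plants that run short of water make more abscisic acid, a hormone that closes stomata and turns on genes for protective proteins, compatible solutes and water transport. Stems of sweet sorghum store sucrose while their walls lignify, and both processes draw on the same carbon. Many stem transcripts also follow the circadian clock, in which morning and evening components alternate over the day. The deposited table names genes by Sobic identifier and gives no descriptions, so genes below are described by their values, except for those whose names come from published work on the locus.

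The step from D1 was modest for most members. Background rates stood at 4.57% of the 16801 measured genes higher by at least 1 in D2 than in D1 and 5.12% in D3 than in D1, and 1.98% met the member rule. Of the 768 genes higher in D2, 393 were back within 1 of their D1 value in D3, 42 stayed higher in D3 but moved by at least 1 between D2 and D3, and 333 were members. Members thus made up 43.4% of the genes higher in D2 and 38.7% of the 861 higher in D3. The lower of D2 and D3 exceeded D1 by a median of 1.27, with quartiles of 1.12 and 1.62, and 235 members lay under 1.5. At least 2 was reached by 36 members and at least 3 by 9. Median levels over members were 9.68 FPKM in D1, 35.8 in D2 and 31.8 in D3, where the median of all measured genes lay between 11.4 and 12.1. In D3 212 members were lower than in D2 and 121 higher, with a median difference of -0.13.

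**Figure D1:**
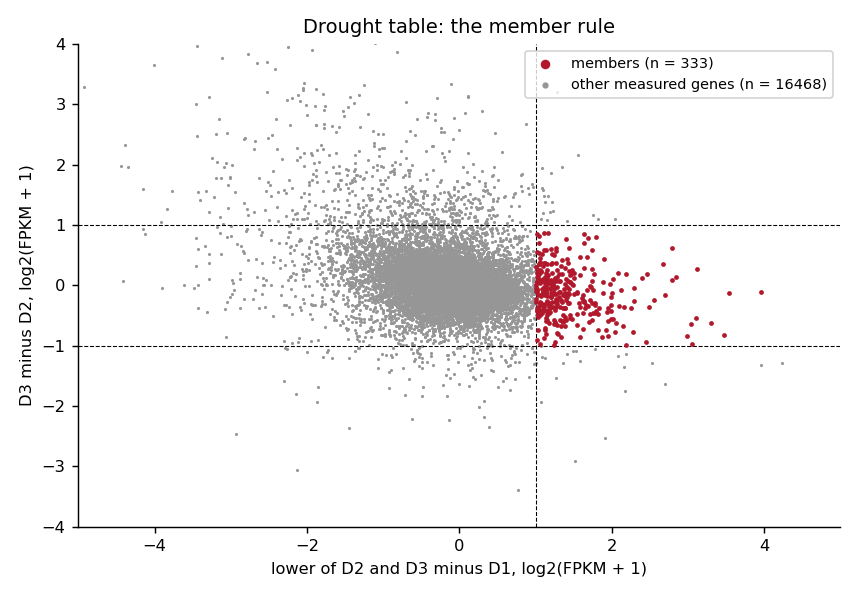
Each point is a measured gene of the drought table. The x axis is the lower of D2 and D3 minus D1, and the y axis is D3 minus D2, both in log2(FPKM + 1), with dashed lines at the thresholds. Members are the red points right of 1 and between -1 and 1, densest just past the threshold. The axes leave out 20 genes, 1 of them the member Sobic.001G141300 at 14.27.

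At the edge of the rule, members and other genes had nearly the same step at differing levels. Just inside, Sobic.006G276300 had 14.3, 29.7 and 30.0 FPKM in D1, D2 and D3, a step of 1.005, and Sobic.006G073500 had 138, 295 and 277 FPKM. The third was Sobic.002G324200, given below among the most abundant members. Just outside, Sobic.001G189600 had 3.51, 8.02 and 8.52 FPKM, and Sobic.002G082900 had 5.04, 16.0 and 11.1 FPKM, with steps of 0.9999 and 0.9985. Sobic.010G246200 had 4.05, 9.37 and 9.08 FPKM and also fell outside. On the other threshold, Sobic.001G426000 stayed in with 52.3, 483 and 242 FPKM, 0.99 lower in D3 than in D2, while Sobic.001G208100 fell outside with 52.3, 224 and 111 FPKM, 1.01 lower in D3. The next members inside were Sobic.001G092600, at 3.51, 20.2 and 9.70 FPKM, and Sobic.006G005600, described below. The next genes outside were Sobic.004G288700, at 113, 807 and 388 FPKM, and a row of 2 gene models, Sobic.008G000201 and Sobic.008G000300, at 6.63, 19.2 and 41.2 FPKM.

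Each of the 10 largest steps, leaving out genes at 0 in D1, started from a D1 value of at most 23.5 FPKM. Sobic.004G222000 (chromosome 4, 57220819 to 57224296) had 1.502, 40.7 and 37.8 FPKM in D1, D2 and D3, a 27.1-fold difference between D2 and D1. Sobic.001G291300 (chromosome 1, 56808443 to 56809248) had 17.1, 229.6 and 209 FPKM, 13.4-fold higher in D2. Sobic.002G249500 (chromosome 2, 63669378 to 63671498) had 7.42, 163 and 92.1 FPKM. These 3 genes differ in the soil bed. The first stayed between 1.90 and 7.99 FPKM over the stages, the second had 0.446 FPKM in B and 10.7 FPKM in FI, and the third had 58.6 FPKM in B and 16.1 FPKM in FI.

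A further 6 of the 10 largest steps belonged to genes that were also expressed in the soil bed. Sobic.004G228900 (chromosome 4, 57867256 to 57868252) had 0.978, 24.2 and 15.2 FPKM in the pots and 59.0, 309, 69.5 and 277 FPKM in FI, B, MS and SD, so its highest pot value stayed below its lowest stage value. Sobic.009G163900 (chromosome 9, 52032824 to 52036139) had 4.40, 81.4 and 52.5 FPKM in the pots and 84.5, 447, 92.3 and 253 FPKM over the stages. Both genes were higher at B and SD than at FI and MS. Sobic.006G005600 (chromosome 6, 868220 to 871154) had 1.46, 38.9 and 19.3 FPKM in the pots and peaked at 218 FPKM in MS. Sobic.003G350700 (chromosome 3, 67021778 to 67024939) had 23.5, 345 and 192 FPKM in the pots and between 157 and 779 FPKM over the stages. The other 2 were Sobic.010G146700, highest at 111 FPKM in B, and Sobic.002G403600, highest at 31.8 FPKM in MS. Sobic.006G106700 (chromosome 6, 47641061 to 47643877) was the reverse, at 7.40, 104 and 71.2 FPKM in the pots and at most 0.285 FPKM at any stage.

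**Figure D2:**
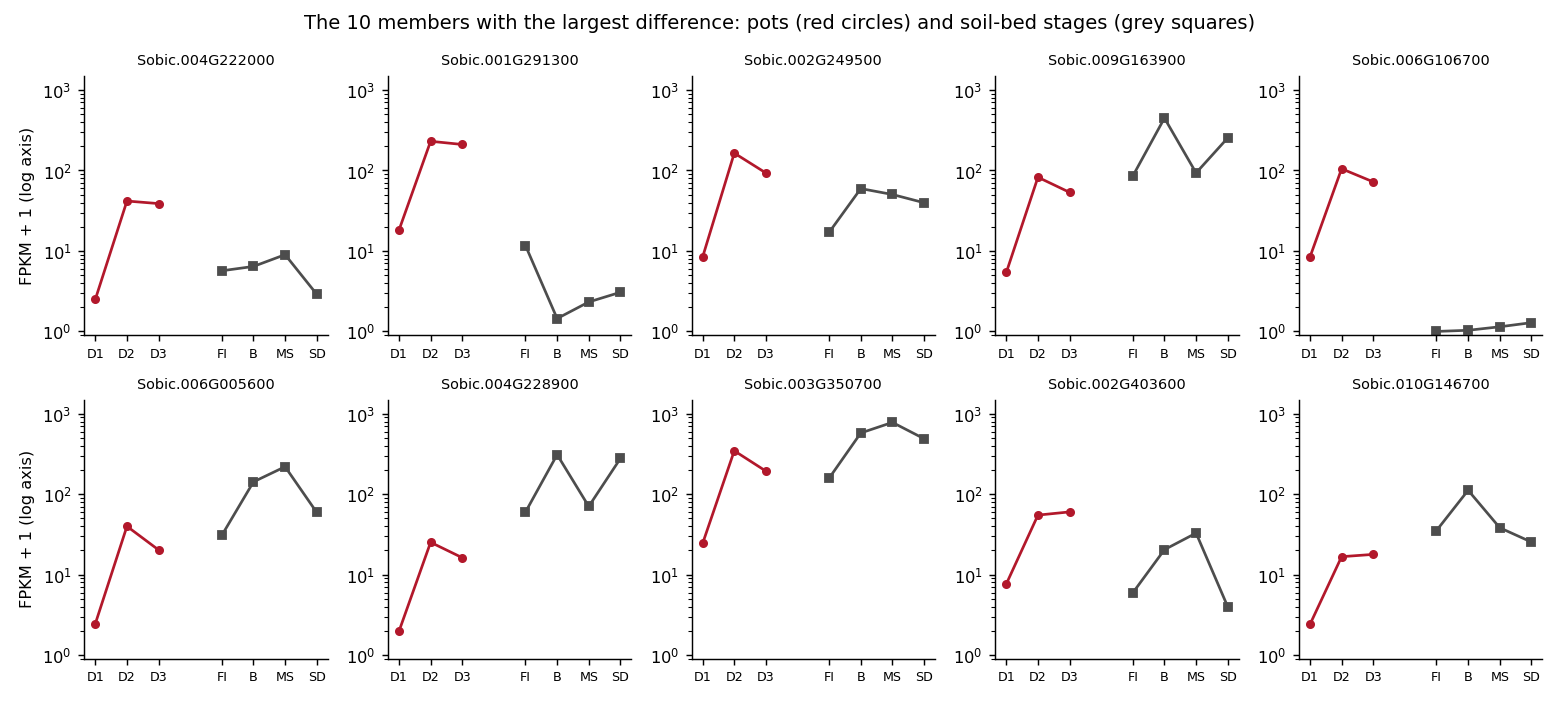
FPKM + 1 on a log axis for the 10 members with the largest step, in D1, D2 and D3 (red circles) and in the soil-bed stages FI, B, MS and SD (grey squares), 1 value per group by the authors. All 10 are low in D1 by choice. The stage profiles differ from gene to gene, from under 1 FPKM in Sobic.006G106700 to 779 FPKM in Sobic.003G350700.

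At the abundant end, 93 members averaged at least 100 FPKM over D2 and D3 and 8 at least 1000. Sobic.003G397400 (chromosome 3, 70714984 to 70715693) had 1525, 3881 and 5220.0 FPKM in D1, D2 and D3. Its soil-bed values were 34.6, 35.8, 374 and 342 FPKM from FI to SD, so it was above every stage at each pot reading. Sobic.009G234600 (chromosome 9, 57389227 to 57390570) had 546, 2474 and 2172 FPKM in the pots and 92.7, 178, 62.6 and 1.28 FPKM over the stages, with its lowest value at the last stage. Sobic.001G022900 was abundant throughout, at 598, 1487 and 1454 FPKM in the pots and between 521 and 1072 FPKM in the soil bed. Sobic.004G011566 had 529, 1495 and 1235 FPKM in the pots, and its highest stage was FI, at 892 FPKM. Sobic.004G166400 had 452, 1046 and 971 FPKM in the pots and between 132 and 330.3 FPKM over the stages. Both were thus expressed at each stage as well. Sobic.001G439700 reached 1023 FPKM in D2 and lay between 117 and 197 FPKM over the stages.

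The top 2 members by level carry values that may be failed estimates. Sobic.001G141300 (chromosome 1, 11334814 to 11340551) was listed at 0 in D1, 23987 FPKM in D2 and 19778 in D3, and had between 9873 and 19971 FPKM over the stages. The other row at its locus, Sobic.001G141200, also a member, was listed at 0 in D1 as well, with 7.70 and 9.45 FPKM in D2 and D3. Sobic.002G324200 (chromosome 2, 69501545 to 69504021) had 6377, 15546 and 12776 FPKM in the pots, with 12502 in FI and 13868 in SD, but was listed at 0 in B and MS. A 0 beside a value of at least 100 FPKM in another column of its table occurred in 3 rows of the drought table and 2 of the development table. No fold is given against these zeros, and without these rows the recomputed counts of members moved by at most 2.

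Of 22 identifiers of known stem genes in 7 lists, 19 were measured in the pots and 2 were members, beside 1.98% of all measured genes. The lists and these names come from published work, and were chosen with earlier results of these data known. The clock list gave 1 member of 3. Sobic.007G047400 (chromosome 7, 4745498 to 4758130), named LHY and in Arabidopsis a morning component of the clock, had 7.28, 40.1 and 26.0 FPKM in D1, D2 and D3. The evening component TOC1 (Sobic.004G216700), which in Arabidopsis represses LHY, had its highest value in D1, at 117 FPKM, with 51.6 in D2 and 74.1 in D3. GI (Sobic.003G040900), another evening component, had 155, 209.5 and 176 FPKM. No source used here gives the time of day of the harvests, and its part in the members' values was not tested.

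In the phenylpropanoid and lignin list, 1 of 5 genes was a member. C4H (Sobic.002G126600, chromosome 2, 17292183 to 17296557), cinnamate 4-hydroxylase, which adds the hydroxyl group to cinnamate early in lignin synthesis, had 9.26, 50.1 and 33.4 FPKM in D1, D2 and D3. PAL (Sobic.004G220300), the enzyme just before it, had 121, 265 and 211 FPKM and missed the rule, its step being 0.80. The 4CL gene Sobic.004G062500, just after C4H, had its lowest value in D2, at 30.4, 4.10 and 16.6 FPKM. The other 2 of the list were Sobic.004G071000, at 37.5, 49.2 and 72.5 FPKM, and Sobic.010G052200, at 68.5, 47.4 and 58.8 FPKM. In the soil bed C4H had 55.1, 118, 133 and 131 FPKM from FI to SD. LHY and C4H each share a locus with another row, which in both cases stood at or under 0.0232 FPKM in the pots. The lists of cellulose synthases (3 genes measured), sucrose enzymes (3), sugar transport (3), dhurrin synthesis (1) and dry-stalk NAC (1) held 0 members. At a background of 1.98%, lists this short would mostly hold none. The 3 cellulose synthases were taken as stem markers, and whether each serves the secondary wall was not checked. Sobic.002G118700 was at 53.2, 91.8 and 27.6 FPKM in the pots, while Sobic.001G224300 and Sobic.003G296400 did not exceed 1.81 FPKM there. In the soil bed Sobic.002G118700 had 569.9, 82.1, 139 and 343 FPKM in FI, B, MS and SD. Sobic.001G224300 had 30.3, 12.9, 1.91 and 9.73 FPKM, and Sobic.003G296400 had 62.7, 23.4, 3.54 and 22.0 FPKM, both lowest in MS.

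The soil-bed stages show when the members are used in plants that were watered. By name 322 members were found once in the development table, 247 of them with identical coordinates, and 311 reached 1 FPKM at a stage, 1.99% of the 15638 genes measured in both tables. Another 11 were matched but stayed under 1 FPKM at every stage, and 11 were not matched. Those 15638 genes are the background below. Over the stages 240 of 311 members (77.2%) ranged by at least 1, against 44.5% of all genes. The genes that mirror the rule, lower in D2 and D3 than in D1 and alike in both (402 genes, from the 6.25% of measured genes lower in D2, with 352 in that background), ranged as widely, with 276 of 352 (78.4%).

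Members tended to be higher at booting than at floral initiation. Of 311 members 102 were at least 1 higher in B than in FI (32.8%, with 9.66% of all genes) and 40 at least 1 lower (12.9%, with 13.2% of all genes). The median difference was 0.44 in members and 0.07 over all genes. The mirror set had 49 higher (13.9%) and 103 lower (29.3%) of 352, with a median of -0.32. Sobic.006G086000 (chromosome 6, 45545064 to 45547501) had 115 FPKM in B and 0.405 in FI, a difference of 6.37 in log2(FPKM + 1). Its 284-fold ratio rests on an FI value under 1 FPKM. In the pots it had 50.5, 189 and 195 FPKM. Sobic.003G067800 (chromosome 3, 5750271 to 5752092) had 607 FPKM in B and 9.05 in FI. Its row shares a locus with Sobic.003G067900, so reads may have been split between them. In the other direction Sobic.002G055700 had 1.59 FPKM in B and 43.6 in FI, and Sobic.009G063301 had 4.61 FPKM in B and 84.8 in FI.

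Between booting and the milky stage the members moved both ways. In MS 36 were at least 1 higher than in B (11.6%, with 6.36% of all genes) and 57 at least 1 lower (18.3%, with 6.5% of all genes), and the median was -0.01. The mirror set was much the same, with 11.1% higher and 16.8% lower. Sobic.009G222000 had 134.5 FPKM in MS and 8.16 in B, and Sobic.003G397400 had 374 FPKM in MS and 35.8 in B. Sobic.008G031000 (chromosome 8, 2778881 to 2780069) had 21.5 FPKM in MS and 1383 in B, 64.5-fold lower in MS. Sobic.003G017200 had 2.12 FPKM in MS and 45.2 in B.

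At soft dough members tended to be lower than at the milky stage. In SD 63 were at least 1 lower than in MS (20.3%, with 4.57% of all genes) and 17 at least 1 higher (5.47%, with 5.88% of all genes). The median difference was -0.37 in members, 0.00 over all genes and 0.16 in the mirror set, of which 28 were lower (7.95%) and 68 higher (19.3%). Sobic.009G234600, described above, was 48.8-fold lower in SD than in MS. Sobic.009G161700 had 30.6 FPKM in SD and 499.8 in MS, and shares its locus with another row. Sobic.005G186200 had 132 FPKM in SD and 26.9 in MS, and Sobic.002G055700 had 89.6 in SD and 20.1 in MS.

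Of the 102 members higher in B than in FI, 38 were at least 1 lower in SD than in MS and 30 at least 1 lower in MS than in B. The same was not counted over all genes higher in B than in FI, so these counts have no background. Genes picked for a high value in B also tend to be lower in MS than in B. From the first to the last stage the 2 directions were nearly even. Of 311 members 62 were at least 1 higher in SD than in FI (19.9%, with 10.9% of all genes) and 69 at least 1 lower (22.2%, with 13.5% of all genes), and which count was larger changed with the processing. Sobic.007G003500 had 15.8 FPKM in SD and 0.00625 in FI, and Sobic.003G036300 had 36.9 FPKM in SD and 1.60 in FI. The largest differences the other way were in Sobic.009G234600, 72.3-fold lower in SD, and Sobic.008G031000, 22.6-fold lower in SD. These 4 stage comparisons share columns, so their counts are not independent of each other.

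**Figure D3:**
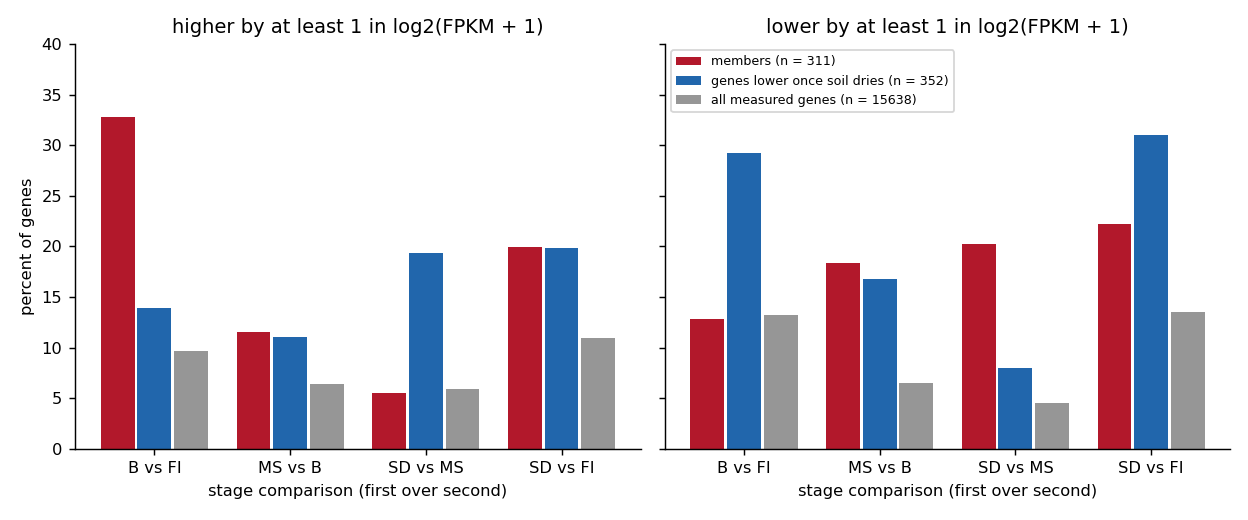
Percent of genes at least 1 higher (left) or at least 1 lower (right) in log2(FPKM + 1), for 4 stage comparisons. Red bars are 311 members, blue bars the 352 genes of the mirror set and grey bars 15638 genes measured in both tables. The red bar stands well above both the blue and the grey for higher in B than in FI (32.8%) and for lower in SD than in MS (20.3%).

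The highest stage was B for 103 members (33.1%, with 25.3% of all genes), MS for 91 (29.3%, with 18.7%), FI for 79 (25.4%, with 30.2%) and SD for 38 (12.2%, with 25.8%). A lead of at least 1 over every other stage was held by 22 of 311 members at FI, 28 at B, 9 at MS and 5 at SD. Of all 15638 genes, 967 held it at FI (6.18%), 396 at B (2.53%), 79 at MS (0.505%) and 316 at SD (2.02%). The members leading at FI and SD were thus near the share of all genes. Of those in FI, Sobic.003G305700 (chromosome 3, 63537645 to 63540433) had 3224 FPKM at that stage and between 829 and 1357 FPKM at the others, and 244, 806 and 803 in D1, D2 and D3. The next in FI were Sobic.004G011566, given above, and Sobic.001G415200, at 549 FPKM in FI and at most 77.6 FPKM at the other stages. Of those in B, Sobic.003G067800 was described above, Sobic.002G412800 had 268 FPKM and Sobic.001G065800 had 255 FPKM. These 3 genes thus peaked at the stage at which the pots were harvested. Sobic.003G356000 (chromosome 3, 67427643 to 67434548) led in MS with 950.1 FPKM, with between 59.4 and 305 FPKM at the other stages, and had 218, 569 and 501 FPKM in the pots. Sobic.010G265600, 1 of 5 rows at its locus, had 937 FPKM in MS and between 260.2 and 425 FPKM at the other stages, and Sobic.009G161700 was the third. Sobic.001G125900 (chromosome 1, 9916343 to 9921119) led in SD with 1105 FPKM and had at most 49.7 FPKM in the pots. It was followed in SD by Sobic.005G186200, given above, and Sobic.008G095000, 1 of 2 rows at its locus, at 129.7 FPKM in SD.

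A pattern of high values at both B and MS and low values at both FI and SD stood out, and was chosen after the values were seen. The lower of B and MS exceeded the higher of FI and SD by at least 1 in 24 of 311 members (7.72%, with 0.812% of all genes) and in 8 of 352 genes of the mirror set (2.27%). By any amount this held for 108 members (34.7%, with 19.6% of all genes). The opposite order, FI and SD both above B and MS by at least 1, was seen in 5 members (1.61%, with 1.3% of all genes). LHY was among the 24, at 16.8, 180.1, 134 and 25.8 FPKM in FI, B, MS and SD, so it was low in D1, FI and SD and high in D2, D3, B and MS relative to its own table. TOC1 had 14.4, 19.0, 13.9 and 43.2 FPKM over the stages, highest in SD, and GI had 115, 263, 233 and 209.7 FPKM. In order of values LHY and GI followed the pattern and TOC1 did not, and the part of the clock or of harvest time in it was not tested.

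The 24 genes spanned a wide range of levels. Sobic.009G108700 (chromosome 9, 43545769 to 43551420) had 343, 861, 889 and 284 FPKM from FI to SD and 255, 1017 and 695 FPKM in the pots. Sobic.002G075800 (chromosome 2, 7874436 to 7878146) had 81.0, 369.7, 438 and 133 FPKM from FI to SD and 114, 619.8 and 487 FPKM in the pots. Sobic.001G352400 (chromosome 1, 64151451 to 64157276) had 27.3, 298, 299 and 89.8 FPKM from FI to SD and 21.1, 114 and 83.9 in the pots. These 3 were between 2.51-fold and 10.9-fold higher in B than in FI, and LHY was 10.7-fold higher. At the low end, Sobic.009G250400 reached 10.5 FPKM in B and 4.84 FPKM in D2, and Sobic.001G446100 did not exceed 6.41 FPKM in any group.

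**Figure D4:**
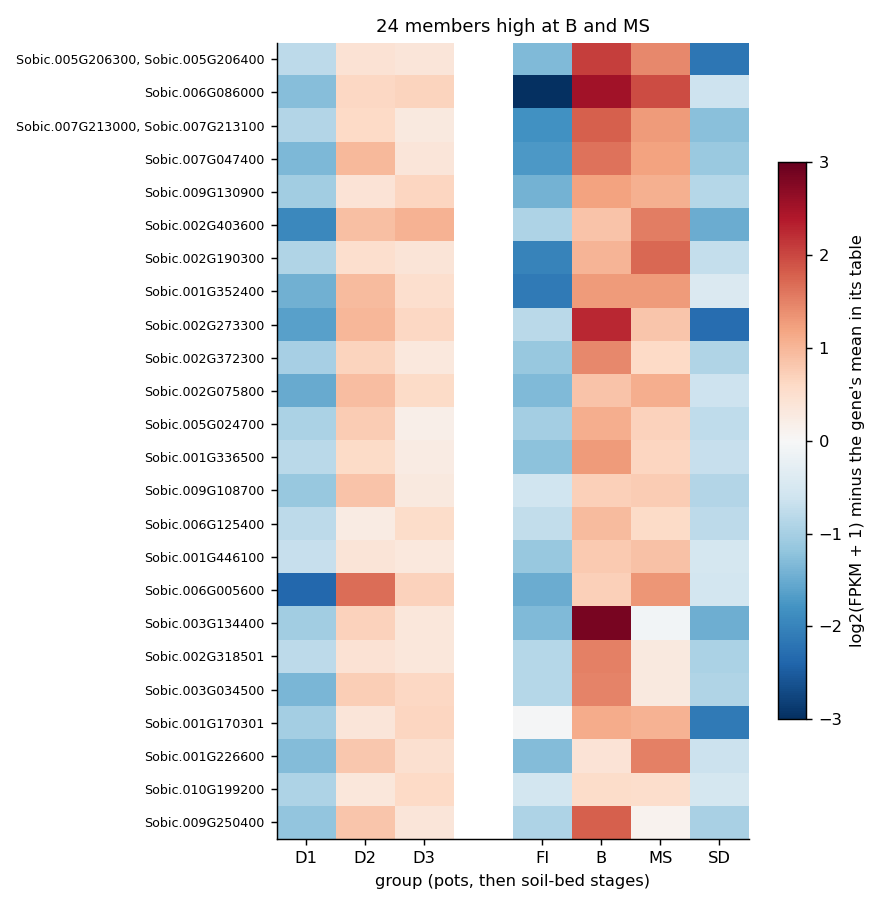
The 24 members whose values in B and MS both exceeded those in FI and SD by at least 1 in log2(FPKM + 1). Colour is log2(FPKM + 1) minus the gene's mean over the 3 pot readings (left) or the 4 stages (right), cut at -3 and 3. D1 is low and D2 and D3 high by the member rule, and FI and SD are low and B and MS high by the choice of these genes.

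Booting in the soil bed lay at differing places among the pot readings. B lay below D1 in 87 members, from D1 up to the higher of D2 and D3 in 142, and above both in 82. It was nearer to D1 in 137 and nearer to the mean of D2 and D3 in 174. This placing of B was not counted over all genes. The 2 tables were taken as normalised apart, plants in pots and in the bed differed in more than water, and the same B column enters each comparison, and the rule chose members for low D1 and high D2 and D3. All counts of this paragraph are therefore a description. Nothing is read from the placing of B, or from the distance of the counts below to the shares over all genes. In D1 146 of 311 members were at least 1 lower than in B (46.9%, with 8.38% of all genes) and 31 at least 1 higher (9.97%, with 12.8% of all genes). In D2 128 were at least 1 higher than in B (41.2%, with 13.2%) and 32 lower (10.3%, with 10.2%), and in D3 118 were higher (37.9%, with 14.1%) and 46 lower (14.8%, with 8.91%). Median differences from B were -0.92 for D1, 0.63 for D2 and 0.51 for D3, where all genes had 0.06, 0.07 and 0.08. Members included genes whose pot values passed the booting level as the soil dried and genes that stayed under it at each reading.

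**Figure D5:**
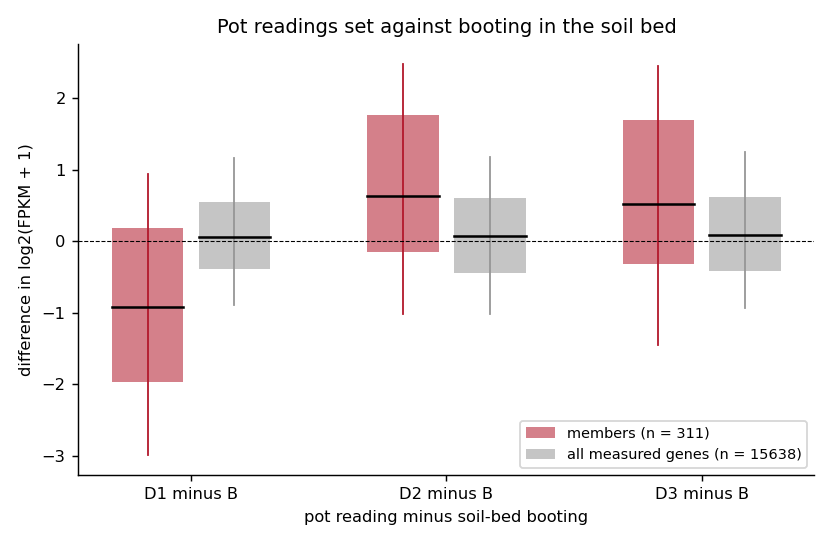
Difference in log2(FPKM + 1) between each pot reading and booting in the soil bed, for 311 members (red) and 15638 genes (grey). Boxes span the quartiles, black lines are medians and thin lines run from the 10th to the 90th percentile. The red median is -0.92 for D1, 0.63 for D2 and 0.51 for D3, and the grey medians lie near 0, an order among the red boxes that the member rule set.

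In 14 members (4.5%, with 2.63% of all genes) each pot value exceeded each stage value by at least 1. Besides Sobic.003G397400 and Sobic.009G234600 these included Sobic.001G264300 (chromosome 1, 49038182 to 49039230), at 15.7, 37.8 and 54.5 FPKM in the pots and at most 1.73 FPKM at any stage. Sobic.001G291200 had 482, 1192 and 1251 FPKM in the pots and 214, 99.1, 118 and 78.3 FPKM over the stages. In 8 members (2.57%, with 1.58% of all genes) each stage value exceeded each pot value by at least 1. In the mirror set 6 of 352 (1.7%) had the first order and 8 (2.27%) the second, so the second was not particular to members. Both orders rest on pot values that the rule used. Among the 8 members, Sobic.003G355800 (chromosome 3, 67408857 to 67412186) had 23.2, 61.8 and 56.2 FPKM in the pots and between 186 and 703 FPKM at the stages. Sobic.005G012000 had 0.249, 2.48 and 2.55 FPKM in the pots and between 9.31 and 14.7 FPKM at the stages. The 11 members under 1 FPKM at every stage included Sobic.001G447500, at 3.91, 23.5 and 18.5 FPKM in the pots, and Sobic.007G071800, 1 of 2 rows at its locus, at 1.26, 13.4 and 8.36 FPKM.

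Members lay on each of the 10 chromosomes, with no member on other scaffolds. Their share of the measured genes was between 1.29% on chromosome 7 (14 genes) and 2.42% on chromosome 5 (19 genes). The 333 members fell in 330 loci, and 52 of these (15.8%) had another member locus among the next 2 measured loci on either side. Of all 15908 measured loci, 1255 (7.89%) had a member locus that near, and no test was made of the difference. In the mirror set 63 of 399 loci (15.8%) lay that near another of the set, so near neighbours were not particular to members. Among loci higher in D2 than in D1 it was 199 of 757 (26.3%), a larger set, in which near neighbours come more often. An example among members is Sobic.001G291200 and Sobic.001G291300 on chromosome 1. The second starts at 56808443, just past the end of the first at 56807734. Both were higher in FI than at the later stages, and their pot levels differed, at 1192 and 229.6 FPKM in D2. On chromosome 6, Sobic.006G106600 (4.87, 12.9 and 12.4 FPKM in D1, D2 and D3) lay near Sobic.006G106700, described above. On chromosome 3, Sobic.003G355800 lay near Sobic.003G356000. The first was lower in B (186 FPKM) than in FI (584 FPKM), and the second was higher in B (164 FPKM) than in FI (59.4 FPKM). Of the members, 20 rows held several gene models and 56 shared their locus with another row, which leaves how reads were split between them uncertain.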

How the data were processed

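The authors deposited FPKM, per the file headers, with 1 value per gene and group in 2 tables (4 stages, 3 soil readings) taken as normalised separately. The genome build and the way replicates became 1 value are not given in the sources used here. Per the labels' protocols, a stranded total RNA kit was used. Cuffdiff, HISAT2 2.0.5, Bowtie2 2.2.9 and cutadapt 1.8.1 are listed, with no roles, in the submitters' processing notes. FPKM keeps no read counts, so depth is unknown. Coordinates are those of the file.

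Differences are in log2(FPKM + 1), which understates changes of low genes. Folds are ratios of FPKM. Genes needed 1 FPKM in at least 1 column of a table. Of 34755 development rows, 2003 had no name and were left out. Tables were joined by name. With 1 value per group, the planned fallback without tests was used. The code was tested on simulated data. Members and lists were chosen with earlier results of these data known. Of 35 lists, 28 needed gene descriptions and could not be run, and 0 of 34088 gene models matched the RefSeq table, so no sequence or description is given.

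Named are the 10 members with the largest step (at least 5 FPKM in D2 and D3, not 0 in D1), the 10 most abundant, list members, the 3 nearest each side of each threshold, the top 3 leading at each stage, and the 2 largest changes each way per stage comparison. Genes illustrating the booting and milky pattern, the pots set against all stages, and neighbours were chosen after their values were seen. Tables were handled with numpy 2.4.6 and pandas 2.3.3 in Python 3.11.15, and plots drawn with matplotlib 3.10.9.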

Additional observations from a re-analysis of the deposited data

How the results depend on the processing

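No paired analysis was possible because each group has 1 value, and for the same reason no replicate could be left out. Settings tried were pseudocounts of 0.1 and 5, dropping the filter, a filter at a mean of 5 FPKM, quantile normalization, median ratio rescaling, single and unshared loci and, chosen after seeing the data, leaving out rows with a 0 beside at least 100 FPKM. Members numbered 521 at a pseudocount of 0.1 (327 shared with the 333) and 192 at 5 (188 shared), and between 261 and 342 otherwise. Dropping the filter left 333, an outcome fixed in advance, because the rule itself puts D2 and D3 at 1 FPKM or more.

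Counts below are members, higher then lower. Members measured in both tables numbered 454 at a pseudocount of 0.1, 183 at 5 and 237 with a mean of 5 FPKM. Shares over all genes are given where they were computed. The other counts have no such share, and the number of member loci per setting is not given. As the member total differs between settings, nothing is read from those counts. At a pseudocount of 0.1, 87 were lower in B than in FI (19.2%, with 16.2% of all genes). In SD 36 were higher than in MS (7.93%, with 8.37% of all genes). Between MS and B 75 and 98 differed, and between SD and FI 109 and 125. Against B, 55 were higher in D1, 52 lower in D2 and 180 higher in D3. The highest stage was FI for 139 and SD for 58, and 100 loci had a near neighbour. At a pseudocount of 5, the counts were 54 and 16 for B against FI (29.5% and 8.74%, with 5.21% and 7.64% of all genes). For SD against MS they were 8 and 38 (4.37% and 20.8%, with 3.33% and 2.19% of all genes). They were 20 and 27 for MS against B, and 34 and 29 for SD against FI. Against B they were 16 and 82 in D1, 82 and 19 in D2, and 70 and 26 in D3. The highest stage was FI for 36, B for 61 and SD for 21, and 18 loci had a near neighbour. With a mean of 5 FPKM, 11 were higher in SD than in MS (4.64%, with 4.69% of all genes). Higher than B were 17 in D1 and 77 in D3. On single and unshared loci 34 loci had a near neighbour, and LHY and C4H dropped out, leaving 0 list genes.

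Shares moved less. Members higher in B than in FI were between 29.5% and 34.7% over the settings, with 5.05% to 12.5% of all genes, and those lower in SD than in MS between 19.5% and 22.8%, with 2.19% to 6.73%. The booting and milky pattern held for 6.92% to 8.74% of members and 0.41% to 1.22% of all genes. The low ends of 5.05% and 0.41% came from dropping the filter, which put genes under 1 FPKM in the background (32028 genes). With a filter the lowest were 5.21% and 0.422%, at a pseudocount of 5. The median of all genes between B and FI was 0.19 after quantile normalization and -0.03 after median ratio rescaling, beside 0.07. The larger side of SD against FI turned to higher with a pseudocount of 5, a mean of 5 FPKM, quantile normalization and single loci. With no read counts, what depth limits cannot be stated.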
